A study of Mus musculus with 6 samples.

Results

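Accessible chromatin at ion channel genes was compared between wildtype and Rroid-deficient natural killer (NK) cells. The assay was ATAC-seq, in which a transposase cuts open DNA and inserts sequencing adapters, so that reads pile up in peaks where chromatin is accessible. Of 51775 consensus peaks, 349 had as their nearest gene one whose symbol starts with Kcn, Cacn, Scn and a digit, or Trpc, Trpm or Trpv and a digit. These 349 peaks belonged to 116 of the 16527 nearest genes of the table. The cells came from the spleen of C57BL6 mice, and both genotypes were sorted for the same surface phenotype, negative for CD3 and CD5 and positive for NK1.1 and NKp46. There were 3 wildtype and 3 Rroid-deficient libraries, with 50000 cells of each genotype taken for transposition. Rroid is a long noncoding RNA locus on mouse chromosome 12 near Id2, which encodes an inhibitor of E-protein transcription factors. The age of the mice, the design of the deficient allele and whether replicate libraries stem from different mice are not given in the labels. All p-values therefore measure the spread between these libraries, which may be technical.

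Peaks were tied to genes by distance alone, which does not say which gene a site acts on. Of the 349 peaks, 186 lay in a transcript of the gene they were assigned to, 126 lay between genes, and 37 lay in a transcript of another gene. The symbol rule also took in 4 names that are not channel subunits, with 11 peaks. They were Kcnq1ot1, an imprinted noncoding RNA, Trpc5os, Kcnrg and Trpc4ap, and leaving them out left 338 peaks of 112 genes. All 349 peaks passed the filter on low values, which removed no peak of the table.

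Ion channels are membrane pores that let selected ions pass. In lymphocytes, calcium enters mainly through store-operated channels, and potassium channels such as Kv1.3 (gene Kcna3) and KCa3.1 (Kcnn4) keep the membrane potential negative and so sustain the driving force for calcium entry. Voltage-gated sodium and calcium channels are best known from nerve and muscle, and many accessory subunits set the gating and surface level of the pores. TRP channels are cation channels opened by chemical, thermal or mechanical stimuli or by lipids. Accessibility of a gene's regulatory DNA is one condition of its transcription and is not a measure of channel activity.

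Reads in peaks ranged from 39847736 to 47939665 in wildtype and from 27572006 to 41167610 in Rroid-deficient libraries. At the targeted locus on chromosome 12, 13 peaks from 26000744 to 26079794 were picked for being almost absent in the Rroid-deficient libraries. They summed to 4182, 5600 and 4930 normalized reads in the wildtype samples. The corresponding Rroid-deficient sums were 51.7, 51.4 and 56.8, 1.09% of the wildtype mean. This low share follows from how the peaks were picked and is not a separate test of the locus. All 8 NK markers had a strong peak within 1 kb of their start site, summing to 22863 to 26200 normalized reads in wildtype and 17909 to 21756 in Rroid-deficient libraries. Of the 8, 5 fell and 0 rose, beside 11.0% and 3.82% of all strong start-site peaks. Of 7 T cell markers, 2 had a peak within 1 kb of the start, Cd5 and Cd3g. Both peaks were weak and rose, beside 31.0% of all weak start-site peaks. Their summed level went from between 96.7 and 174 to between 432 and 516. The Cd3g mean went from 58.7 to 353. At Cd5 the groups overlapped, with 118.4, 43.7 and 31.3 in wildtype against 118.0, 131 and 141 in Rroid-deficient libraries. The other T cell markers, among them Cd3e, Cd4 and Cd8a, had no peak there, and markers of B cells, myeloid cells and erythroid cells with a peak were not called. The part of this T cell signal in the channel results was not tested. In such bulk libraries, fewer cells with an open site and less opening per cell cannot be told apart.

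Across the ion channel peaks, more rose than fell, and the direction went with how open the site was in wildtype cells. Here a peak is said to have risen or fallen where the adjusted p of Rroid-deficient against wildtype was under 0.05 (limma on log2 of the normalized value plus 1, Benjamini-Hochberg over all peaks). Of 349 peaks, 71 rose, 47 fell and 231 were not called, and the median log2 fold change was 0.13. Over all peaks 25.8% were called, 13.8% higher and 12.1% lower, and the median was -0.01. The split leaned to rises under each scaling, with channel medians of 0.19 when libraries were scaled by total reads in peaks and 0.09 after a loess correction, while total reads moved the median of all peaks to 0.05. The called channel peaks separated the groups without overlap in 111 of 118 cases, a property of 40.1% of all peaks and of 96.0% of all called peaks.

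Peaks were classed by their wildtype mean, strong from the upper quartile of all peaks (730 normalized reads), moderate from the median (191) and weak below it. Because the wildtype values also enter the contrast, each class is set beside all peaks of the same class and nothing is tested on it. Of 48 strong channel peaks, 6 rose and 15 fell, with a median log2 fold change of -0.13, where 6.05% of all strong peaks rose and 19.3% fell. Of 88 moderate channel peaks, 15 rose and 20 fell, with a median of -0.01, where 14.7% of all moderate peaks rose and 19.6% fell. Of 213 weak channel peaks, 50 rose and 12 fell, with a median of 0.29, where 17.2% of all weak peaks rose and 4.74% fell and the median was 0.14. The strong members fell in a larger share than all strong peaks, and the weak members rose in a larger share than all weak peaks, and neither gap was tested. With classes set by the mean of all 6 libraries instead, 8 strong peaks rose and 12 fell, beside 7.98% and 17.0% of all strong peaks, and 46 weak peaks rose and 15 fell, beside 14.3% and 6.47% of all weak peaks. The member just above the upper limit was the Scn3a peak at 750.1 normalized reads and the member just below it a Cacng6 peak at 710.4. At the lower limit a Trpc4ap peak at 194 stood above and a Cacng2 peak at 184 below.

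**Figure D1:**
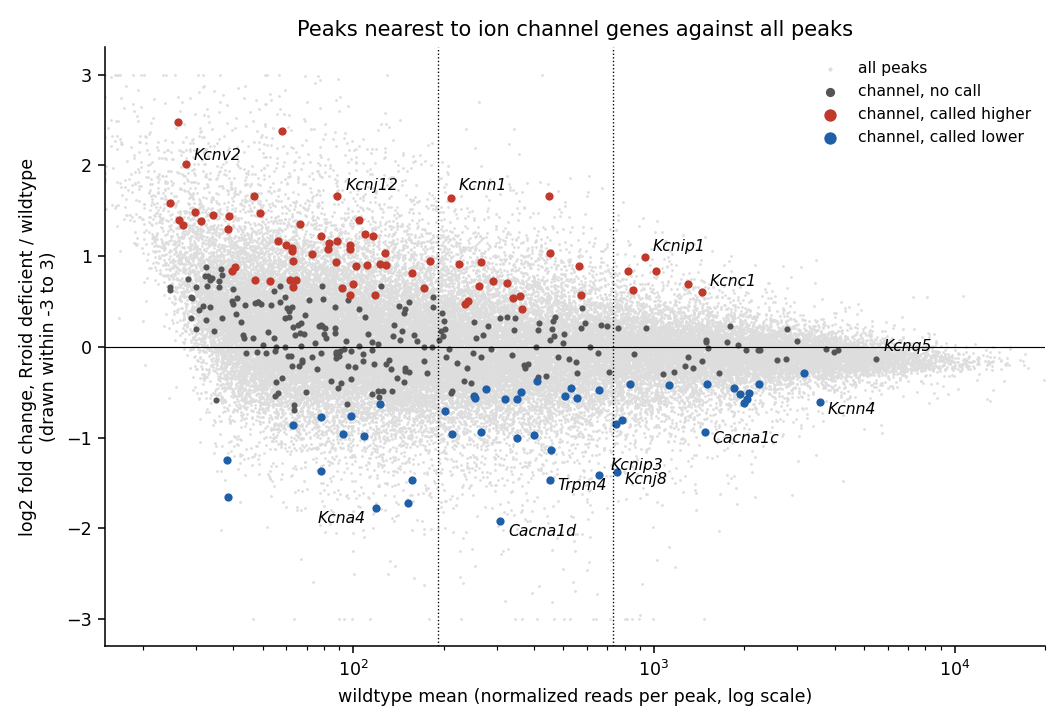
Log2 fold change (Rroid deficient against wildtype) of each ion channel peak against its wildtype mean in normalized reads on a log axis, over all peaks in grey (drawn within -3 to 3), with the limits between weak, moderate and strong peaks as dotted vertical lines. Rises crowd at weak peaks, where 50 of 213 rose, beside 17.2% of all weak peaks. Falls outnumber rises at strong peaks, where 15 of 48 fell, beside 19.3% of all strong peaks.

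**Figure D2:**
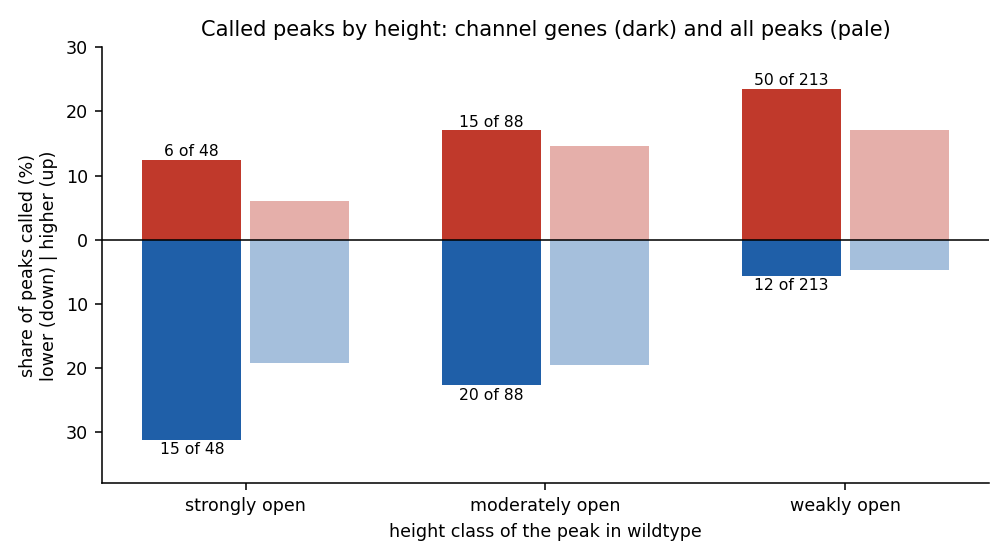
Percentage of peaks called higher or lower in each height class, for ion channel peaks (dark) and for all peaks of the table (pale), with rises drawn upward and falls downward from 0. Among ion channel peaks, rises were most frequent at weak sites (23.5%, beside 17.2% of all weak peaks) and falls at strong sites (31.2%, beside 19.3% of all strong peaks).

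The libraries were not equally placed. As deviations from the mean of all 6 libraries on the log2 scale, the median over weak channel peaks was -0.01, -0.13 and -0.24 in wildtype libraries 1, 2 and 3 against 0.24, 0.02 and 0.19 in Rroid-deficient libraries 4, 5 and 6. At strong channel peaks it was 0.05, 0.15 and 0.03 in wildtype against -0.14, 0.03 and -0.07 in the deficient ones. Rroid-deficient library 5 lay near 0 in both classes, and libraries 4 and 6, which had the fewest reads, lay above 0 at weak peaks and below it at strong ones. Over all weak peaks of the table, the medians in wildtype libraries 1, 2 and 3 were -0.02, -0.12 and -0.06. In Rroid-deficient libraries 4, 5 and 6 they were 0.22, -0.08 and 0.13, so libraries 4 and 6 lay above 0 there too. With libraries 4 and 6 left out, which leaves Rroid-deficient library 5 alone and assumes that it varies like wildtype, 25 weak channel peaks rose and 7 strong ones fell. In that setting the calls over all peaks dropped as well, to 7.2% higher and 7.06% lower.

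The start sites followed the same split. Of 57 channel peaks within 1 kb of an annotated start, 16 rose and 6 fell, where 19.2% of all start-site peaks were called, 10.4% higher and 8.73% lower. Of the 29 weak ones, 14 rose and 1 fell, beside 31.0% and 1.62% of all weak start-site peaks, and 6 rose without libraries 4 and 6. The T cell marker peaks of Cd5 and Cd3g were also weak start-site peaks that rose. Of the 16 strong ones, 1 rose and 5 fell, beside 3.82% and 11.0% of all strong start-site peaks. The strong falls numbered 3 without library 6 and 1 without libraries 4 and 6. The strong start-site peaks that fell belonged to Kcnn4, Kcnj8, Kcnk13, Kcnk7 and Kcnip3, and the strong one that rose belonged to Kcnc1.

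The promoters of 3 genes whose start-site peak fell (Kcnn4, Kcnj8, Kcnk13) and of 3 whose start-site peak rose (Kcnc1, Kcnh1, Kcnh2) are shown to compare the DNA at these sites. Each is the 250 bases before the start of transcription from RefSeq (GRCm38.p6), written 5′ to 3′ on the gene's strand. The peaks were called on mm9 and were not placed on that build. Capitals mark matches, on either strand, to CAGCTG and CAGGTG (E-box), TGTGGT (RUNX), GGAAGT (ETS), GGGCGG (GC box) and AGGTGT (T-box), where CAGGTG and AGGTGT can overlap.
Kcnn4: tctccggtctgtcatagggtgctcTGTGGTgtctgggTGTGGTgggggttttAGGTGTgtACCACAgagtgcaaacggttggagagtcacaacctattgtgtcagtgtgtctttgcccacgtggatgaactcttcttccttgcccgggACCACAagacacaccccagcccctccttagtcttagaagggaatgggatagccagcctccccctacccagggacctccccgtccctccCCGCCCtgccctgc
Kcnj8: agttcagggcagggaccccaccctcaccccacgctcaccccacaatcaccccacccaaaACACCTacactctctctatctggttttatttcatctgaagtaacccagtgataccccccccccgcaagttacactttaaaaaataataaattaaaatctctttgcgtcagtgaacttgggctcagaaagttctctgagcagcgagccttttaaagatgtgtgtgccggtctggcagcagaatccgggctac
Kcnk13: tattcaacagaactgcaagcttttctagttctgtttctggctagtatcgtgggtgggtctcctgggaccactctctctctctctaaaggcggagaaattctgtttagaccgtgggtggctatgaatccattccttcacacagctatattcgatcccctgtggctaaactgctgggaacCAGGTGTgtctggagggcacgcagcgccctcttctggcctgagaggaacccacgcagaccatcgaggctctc
Kcnc1: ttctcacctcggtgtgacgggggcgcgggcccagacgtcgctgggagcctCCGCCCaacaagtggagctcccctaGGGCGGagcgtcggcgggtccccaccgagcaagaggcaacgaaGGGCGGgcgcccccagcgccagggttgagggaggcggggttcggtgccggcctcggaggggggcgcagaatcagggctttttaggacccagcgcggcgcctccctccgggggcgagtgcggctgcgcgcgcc
Kcnh1: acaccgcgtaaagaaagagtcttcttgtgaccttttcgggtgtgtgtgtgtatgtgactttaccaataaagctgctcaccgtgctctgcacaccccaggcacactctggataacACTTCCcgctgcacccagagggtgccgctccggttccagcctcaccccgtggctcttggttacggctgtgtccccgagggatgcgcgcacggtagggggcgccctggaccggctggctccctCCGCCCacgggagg
Kcnh2: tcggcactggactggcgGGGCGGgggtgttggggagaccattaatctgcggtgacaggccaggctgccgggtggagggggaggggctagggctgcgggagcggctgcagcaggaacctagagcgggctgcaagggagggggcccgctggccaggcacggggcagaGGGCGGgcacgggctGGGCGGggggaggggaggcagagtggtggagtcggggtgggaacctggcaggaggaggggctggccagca

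These windows lie at chr7:24370013-24370262 for Kcnn4, chr6:142571615-142571864 for Kcnj8, chr12:99964249-99964498 for Kcnk13, chr7:46396218-46396467 for Kcnc1, chr1:192190527-192190776 for Kcnh1 and chr5:24329592-24329841 for Kcnh2. The Kcnn4 window held 4 matches to TGTGGT, and 10 of 32851 promoters of the same length (0.0304%) held at least as many. Such a share was counted only for this motif among those searched, so it is a description and not a test. The Kcnc1 and Kcnh2 windows each held 3 matches to GGGCGG, a motif found at least once in 32.7% of all promoters. For the other motifs that share was 13.0% for CAGCTG, 17.2% for CAGGTG, 14.0% for TGTGGT, 19.7% for GGAAGT and 11.8% for AGGTGT. The windows of the falling genes had a GC content of 58.8%, 49.2% and 52.8%, and those of the rising genes 74.4%, 62.0% and 73.6%. These 6 promoters were chosen by their change, so the contrast between them is a description. Over all channel promoters in the RefSeq table with a called start-site peak the gap was narrower. The median GC content was 63.0% in 14 promoters of 11 genes whose peak rose and 59.4% in 8 promoters of 6 genes whose peak fell. A GGGCGG match was found in 57.1% and 50% of these promoters. Alternative promoters of a gene were counted separately, so they are not independent.

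The 12 genes of the symbol rule with the highest wildtype peak included channels known in lymphocytes, channels best known elsewhere and Kcnq1ot1, a noncoding RNA, and most of these peaks were not called. Kcnq5, encoding a Kv7 potassium channel pore, had the highest, at its promoter, with 5423, 5531 and 5496 normalized reads in wildtype libraries 1 to 3 against 4988, 5026 and 4969 in Rroid-deficient libraries 4 to 6 (log2 fold change -0.13, SE 0.07, adjusted p = 0.176). The groups did not overlap there, but the difference missed the threshold. Kcnn1, encoding a small-conductance calcium-activated potassium channel, came next with a peak 8224 bp before its start (4091 ± 461 against 3994 ± 353 normalized reads, wildtype first, mean ± SD, n = 3 here and below). Kcnab2, encoding a beta subunit of Kv1 channels, followed with 3964 ± 364 against 3792 ± 181 at a site that is the annotated promoter of Nphp4. Kcna3 had 3740.0 ± 116 against 3684 ± 91.3, Kcnmb1 2778 ± 312 against 3178 ± 402, Cacnb4 2759.5 ± 89.8 against 2511 ± 36.5, Kcnq1ot1 2563 ± 81.96 against 2315 ± 88.9, Trpm7 2258 ± 85.3 against 2217 ± 222 and Trpv2 2226 ± 171 against 2169.5 ± 239, and none of these was called. The 3 that fell were those of Kcnn4, Kcng3 and Trpm1, described with their families below.

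**Figure D3:**
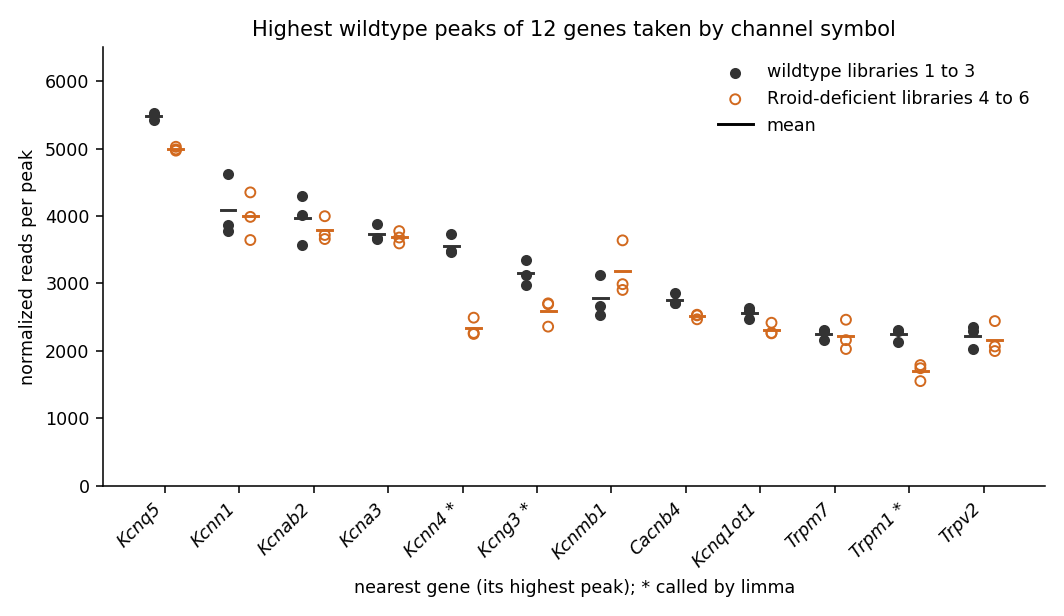
Normalized reads of each library at the highest peak of the 12 genes of the symbol rule with the highest wildtype means, as points, with short lines for group means and stars for called peaks. The widest gap is at the Kcnn4 peak, from 3559 in wildtype to 2337 in Rroid-deficient cells.

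Voltage-gated potassium channel pores formed the largest family, with 89 peaks at 28 genes. Of these, 27 rose (30.3%) and 13 fell (14.6%), beside 13.8% and 12.1% of all peaks. The median log2 fold change was 0.29. Weak peaks made up 67.4% of the family, and 17.2% of all weak peaks rose. The falls numbered 7 to 12 with 1 library left out, 7 when wildtype library 2 was dropped and 8 when either wildtype library 3 or Rroid-deficient library 6 was. Kcna3 encodes Kv1.3, the main voltage-gated potassium channel of lymphocytes. Its highest peak, over the gene itself (chromosome 3, 106838709 to 106842037, mm9), had 3874, 3679 and 3667 normalized reads in wildtype libraries 1 to 3 against 3594, 3776 and 3681 in Rroid-deficient libraries 4 to 6 (log2 fold change -0.02, SE 0.08, adjusted p = 0.866), and the groups overlapped. An upstream peak 69159 bp before the start had 1902, 2072 and 2015 in wildtype against 1192, 1348 and 1354 in Rroid-deficient cells and fell (log2 fold change -0.62, SE 0.09, adjusted p = 9.24e-05), with every wildtype library above every Rroid-deficient one. Peaks 39799 and 95864 bp before the start also fell, from 658 ± 96.1 to 473 ± 78.04 and from 123 ± 11.3 to 79.5 ± 8.41. The nearer of these lost its call without wildtype library 2 or 3 or Rroid-deficient library 4 or 6 (adjusted p 0.0644 to 0.101) and the farther without wildtype library 1, 2 or 3 or Rroid-deficient library 5 or 6 (adjusted p 0.0566 to 0.119).

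The neighbouring gene Kcna2, encoding Kv1.2, moved the other way. Its nearest called peak lay 50.8 kb from the highest peak of Kcna3. The peak 11041 bp before its start had 132, 94.1 and 86.9 in wildtype against 264, 284 and 267 in Rroid-deficient cells and rose (log2 fold change 1.40, SE 0.18, adjusted p = 3e-05), and the peak near its start rose from 56.4 ± 6.47 to 135 ± 54.1 (adjusted p = 0.00479, log2 fold change 1.17). Both were weak in wildtype, and the other 3 Kcna2 peaks were not called.

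All 5 peaks of Kcna4, which encodes the rapidly inactivating Kv1.4, fell, and all were weak in wildtype. The largest had 146, 148 and 178 in wildtype against 113, 25.7 and 60.5 in Rroid-deficient cells over the start (log2 fold change -1.46, SE 0.36, adjusted p = 0.00592). The peak 11548 bp after the start had 169, 128 and 160.2 in wildtype against 54.4, 33.3 and 50.8 in Rroid-deficient cells (log2 fold change -1.72, SE 0.24, adjusted p = 5.93e-05), and that at 14280 bp had 126, 94.1 and 138 in wildtype against 55.7, 24.8 and 27.8 in Rroid-deficient cells (log2 fold change -1.77, SE 0.30, adjusted p = 0.000361). The Rroid-deficient libraries stood below every wildtype library at these peaks. The outermost peaks, at 38.3 and 38.04 wildtype reads, were less stable. The upstream one lost its call without wildtype library 1, 2 or 3 or Rroid-deficient library 5 (adjusted p 0.0516 to 0.139), and the downstream one without wildtype library 1, 2 or 3 or Rroid-deficient library 5 or 6 (adjusted p 0.0776 to 0.144).

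All 6 peaks of Kcnc1, encoding Kv3.1, a fast delayed rectifier also described in mouse T cells, rose. The start-site peak (chromosome 7, 53651398 to 53653466) had 1098, 1153 and 804 normalized reads in wildtype libraries 1 to 3 against 1781, 1963 and 1644 in Rroid-deficient libraries 4 to 6 (log2 fold change 0.83, SE 0.12, adjusted p = 9.48e-05). The upstream peaks at 6705, 4671 and 2589 bp before the start rose from 1446 ± 225 to 2184 ± 133, from 818 ± 118 to 1456 ± 122 and from 563 ± 122 to 1028 ± 78.3. The groups were apart at each of them, and 3 of the 6 strong rises among all channel peaks were at this gene. Within introns, the peak at 5952 bp rose from 97.3 ± 15.7 to 206 ± 29.3, and that at 26525 bp rose from 64.4 ± 25.3 to 104 ± 13.4 but lost its call without wildtype library 2 or 3 or Rroid-deficient library 4, 5 or 6 (adjusted p 0.0585 to 0.19).

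At the ether-a-go-go (Kcnh) genes, rises outnumbered falls. Kcnh1 rose at 4 of 5 peaks, the tallest having 498, 434 and 426 in wildtype against 1069, 947 and 779 in Rroid-deficient cells in an intron (log2 fold change 1.03, SE 0.13, adjusted p = 1.65e-05) and the promoter peak 115, 69.7 and 65.4 in wildtype against 211, 175 and 155 in Rroid-deficient cells (log2 fold change 1.14, SE 0.23, adjusted p = 0.00137). Kcnh2, encoding the hERG channel known from heart rhythm, had both directions within 1 gene. Its exon peak rose from 573 ± 68.5 to 853 ± 73.5, its promoter peak from 102 ± 9.35 to 191 ± 9.69 and an intron peak from 59.6 ± 13.2 to 129 ± 7.13, while the peak 21960 bp after the start had 373, 328 and 353 in wildtype against 186, 162 and 178 in Rroid-deficient cells and fell to 49.9% of its wildtype mean. A Kcnh3 promoter peak rose from 82.3 ± 26.6 to 169 ± 27.3, and Kcnh8 rose at 2 peaks, the larger change from 34.1 ± 10.1 to 95.1 ± 26.7 (adjusted p = 0.00184, log2 fold change 1.46). The other Kcnh8 peak lost its call without wildtype library 2 or 3 or Rroid-deficient library 4 or 6 (adjusted p 0.0644 to 0.0982). The strong Kcnh5 peak lay 373141 bp from its start and had 1164, 1128 and 1595 in wildtype against 2823, 1264 and 2471 in Rroid-deficient cells. Its call was lost without wildtype library 1 or 2 or Rroid-deficient library 4 or 6 (adjusted p 0.0652 to 0.102).

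The Kcng, Kcns and Kcnv genes encode modifier subunits, which form no channel alone. Kcnv2 had 44.5, 8.40 and 30.3 in wildtype against 118, 87.6 and 83.4 in Rroid-deficient cells (adjusted p = 0.00236, log2 fold change 2.02), Kcns1 rose from 26.3 ± 6.62 to 70.1 ± 10.6, and Kcng1 rose at 2 peaks, the higher from 261 ± 10.7 to 415 ± 13.6. The lower Kcng1 peak, from 46.8 ± 47.4 to 111 ± 14.3, lost its call without wildtype library 3 (adjusted p = 0.0607). The Kcng3 peak among the 12 highest, 23027 bp before its start, had 2977, 3355 and 3119.7 in wildtype against 2360.5, 2705 and 2692 in Rroid-deficient cells and fell (log2 fold change -0.29, SE 0.09, adjusted p = 0.0222), but it lost the call without wildtype library 2 or Rroid-deficient library 4 or 6 (adjusted p 0.0554 to 0.113). A weak Kcng3 peak rose from 62.95 ± 10.4 to 99.5 ± 7.59 and lost its call without wildtype library 2 or 3 or Rroid-deficient library 4, 5 or 6 (adjusted p 0.062 to 0.146). Kcnq5 fell at intron peaks 91081 bp (from 456 ± 22.6 to 208 ± 16.5, adjusted p = 1.18e-05, log2 fold change -1.13) and 131739 bp (from 213 ± 10.3 to 109 ± 10.4) after its start while its tall promoter peak was not called. A further, weak Kcnq5 peak fell and lost its call without wildtype library 2 or 3 or Rroid-deficient library 5 or 6 (adjusted p 0.0819 to 0.184).

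Calcium-activated potassium channels had 11 peaks at 5 genes, of which 3 rose (27.3%) and 2 fell (18.2%), beside 13.8% and 12.1% of all peaks. Both falls were at Kcnn4. Kcnn4 encodes KCa3.1, the intermediate-conductance channel that lymphocytes open when cytosolic calcium rises. Its promoter peak (chromosome 7, 25153941 to 25155705) had 3741, 3475 and 3463 normalized reads in wildtype libraries 1 to 3 against 2252, 2493 and 2267 in Rroid-deficient libraries 4 to 6 (log2 fold change -0.61, SE 0.08, adjusted p = 3.88e-05). All Rroid-deficient libraries lay below all wildtype ones, at 65.7% of the wildtype mean, and the call held under every alternative run. The peak 5267 bp before the start fell from 321 ± 35.2 to 214 ± 13.98 (adjusted p = 0.00811, log2 fold change -0.58), and 2 intron peaks, at 222 ± 17.6 against 197 ± 19.01 and at 213 ± 35.3 against 151 ± 20.8, were not called. The latter fell when wildtype library 1 was left out (adjusted p = 0.0189). Kcnn1 went the other way, since its intron peak had 259, 218 and 155 in wildtype against 649.8, 703 and 592 in Rroid-deficient cells and rose (log2 fold change 1.64, SE 0.17, adjusted p = 1.76e-06). Its promoter peak, from 53.04 ± 11.2 to 87.5 ± 3.84, lost its call without wildtype library 2 or 3 or Rroid-deficient library 4, 5 or 6 (adjusted p 0.0521 to 0.137), and its tall upstream peak was not called. Kcnt1, a sodium-activated relative, rose at 1 peak from 172 ± 16.9 to 269 ± 28.9.

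Inward rectifiers pass potassium more easily into than out of the cell and hold the resting potential. Of 38 peaks at 12 genes, 10 rose (26.3%) and 5 fell (13.2%), beside 13.8% and 12.1% of all peaks. All 5 falls were the 5 peaks of Kcnj8, 3 of which remained without wildtype library 3. Kcnj8 encodes Kir6.1, a pore of ATP-sensitive potassium channels. The tallest, 9856 bp after the start (chromosome 6, 142509432 to 142510609), had 1975, 1979 and 2148 in wildtype against 1416, 1326 and 1349 in Rroid-deficient cells (log2 fold change -0.58, SE 0.09, adjusted p = 0.000132). The promoter peak had 1522, 1766 and 2250.4 in wildtype against 1322, 1308 and 1363 in Rroid-deficient cells (log2 fold change -0.45, SE 0.12, adjusted p = 0.00883) and lost its call without wildtype library 3 (adjusted p = 0.0514). The deepest fall had 655, 775 and 823 in wildtype against 282, 259.9 and 319 in Rroid-deficient cells (log2 fold change -1.38, SE 0.13, adjusted p = 9.72e-07), and a further peak fell from 266 ± 52.1 to 139 ± 38.5. The peak over the 3′ UTR fell from 363 ± 28.99 to 259 ± 50.1 and lost its call without wildtype library 3 or Rroid-deficient library 5 or 6 (adjusted p 0.0722 to 0.113). The groups did not overlap at the tallest, the promoter and the deepest peak.

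The rising inward rectifiers were each called at 1 to 3 peaks. Kcnj6, encoding the G-protein-gated GIRK2, rose at 3 of 4 peaks, the strong one with 877, 914 and 773 in wildtype against 1245, 1458 and 1243 in Rroid-deficient cells (log2 fold change 0.62, SE 0.11, adjusted p = 0.000372). The others rose from 111 ± 14.00 to 210.5 ± 47.4 and from 241 ± 11.9 to 342 ± 12.5, the latter losing its call without Rroid-deficient library 6 (adjusted p = 0.0594). Kcnj12, encoding Kir2.2, had 120.2, 84.01 and 61.5 in wildtype against 285, 309 and 227 in Rroid-deficient cells (log2 fold change 1.66, SE 0.22, adjusted p = 3.49e-05). Kcnj2, Kcnj9, Kcnj10, Kcnj15 and Kcnj16 also rose at 1 or 2 peaks. The calls of Kcnj9 without wildtype library 1 or 2 or Rroid-deficient library 4 or 6 (adjusted p 0.0627 to 0.112) and of Kcnj10 without wildtype library 2 or Rroid-deficient library 4 or 6 (adjusted p 0.0629 to 0.0718) were lost. The Kcnj15 peak lay inside Erg and rose from 78.3 ± 23.1 to 180.4 ± 26.8, and the Kcnj2 peaks lay over 700 kb from its start, so these assignments are remote.

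Tandem-pore (Kcnk) channels carry background potassium currents. Of 31 peaks at 11 genes, 2 rose (6.45%) and 4 fell (12.9%), beside 13.8% and 12.1% of all peaks. The rises numbered 1 when any of libraries 2, 3, 4 or 6 was dropped. The falls numbered 2 to 3 with 1 library left out (2 when either wildtype library 2 or Rroid-deficient library 6 was dropped). Kcnk13, encoding THIK-1, fell at a strong peak inside Tdp1 with 1967, 2144 and 2116 in wildtype against 1411, 1562 and 1401 in Rroid-deficient cells (log2 fold change -0.51, SE 0.09, adjusted p = 0.000469) and at its own start with 1009, 1186 and 1172 in wildtype against 818, 887 and 805 in Rroid-deficient cells (log2 fold change -0.42, SE 0.10, adjusted p = 0.0067). The related Kcnk12 rose at a weak intron peak from 48.9 ± 14.9 to 135 ± 7.17. Kcnk7 fell from 1507 ± 241 to 1133 ± 188 at its start, and the call was lost without wildtype library 1 or 2 or Rroid-deficient library 4 or 6 (adjusted p 0.0846 to 0.137). Kcnk5, encoding TASK-2, a channel described in T cells, had 1272 ± 82.1 against 1096 ± 62.5 at its highest peak and was not called there (log2 fold change -0.21, SE 0.10, adjusted p = 0.12). It fell only at a weak upstream peak, a call lost without wildtype library 2 or 3 or Rroid-deficient library 4, 5 or 6 (adjusted p 0.0515 to 0.214). Kcnk6, encoding TWIK-2, had 1 peak, at its promoter, which rose from 97.8 ± 18.4 to 145 ± 19.8 and lost its call without wildtype library 2 or 3 or Rroid-deficient library 4 or 6 (adjusted p 0.0879 to 0.21).

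Accessory potassium subunits had 41 peaks at 11 genes, of which 6 rose (14.6%) and 8 fell (19.5%), beside 13.8% and 12.1% of all peaks. The falls numbered 4 without Rroid-deficient library 6 and 5 without wildtype library 2. Kcnip3, encoding KChIP3, a calcium-binding Kv4 subunit also known as the transcriptional repressor DREAM, held most of the falls. Of its 10 peaks, 6 fell and 2 rose. The deepest fall had 647, 658 and 664 in wildtype against 219, 282 and 239 in Rroid-deficient cells (log2 fold change -1.42, SE 0.13, adjusted p = 7.2e-07), and the tallest had 1961, 2058 and 1769 in wildtype against 1134, 1562 and 1364 in Rroid-deficient cells (log2 fold change -0.52, SE 0.11, adjusted p = 0.00231). Rises stood among these falls. An intron peak had 256, 328 and 215 in wildtype against 497, 534 and 474 in Rroid-deficient cells and rose (log2 fold change 0.93, SE 0.15, adjusted p = 0.000246), with no overlap of the groups, and the other rise went from 97.5 ± 31.2 to 206 ± 8.67. A strong peak at 1487 ± 115 against 1547 ± 152 was not called. The promoter peak fell from 831 ± 50.1 to 625 ± 51.6 and lost its call without Rroid-deficient library 6 (adjusted p = 0.0689). The other falls lost theirs without wildtype library 2 (adjusted p = 0.0606) for the peak of 531 wildtype reads, without wildtype library 2 or Rroid-deficient library 4 or 6 (adjusted p 0.0553 to 0.0836) for that of 351, and without wildtype library 1 or Rroid-deficient library 6 (adjusted p 0.0651 to 0.0669) for that of 92.7.

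**Figure D4:**
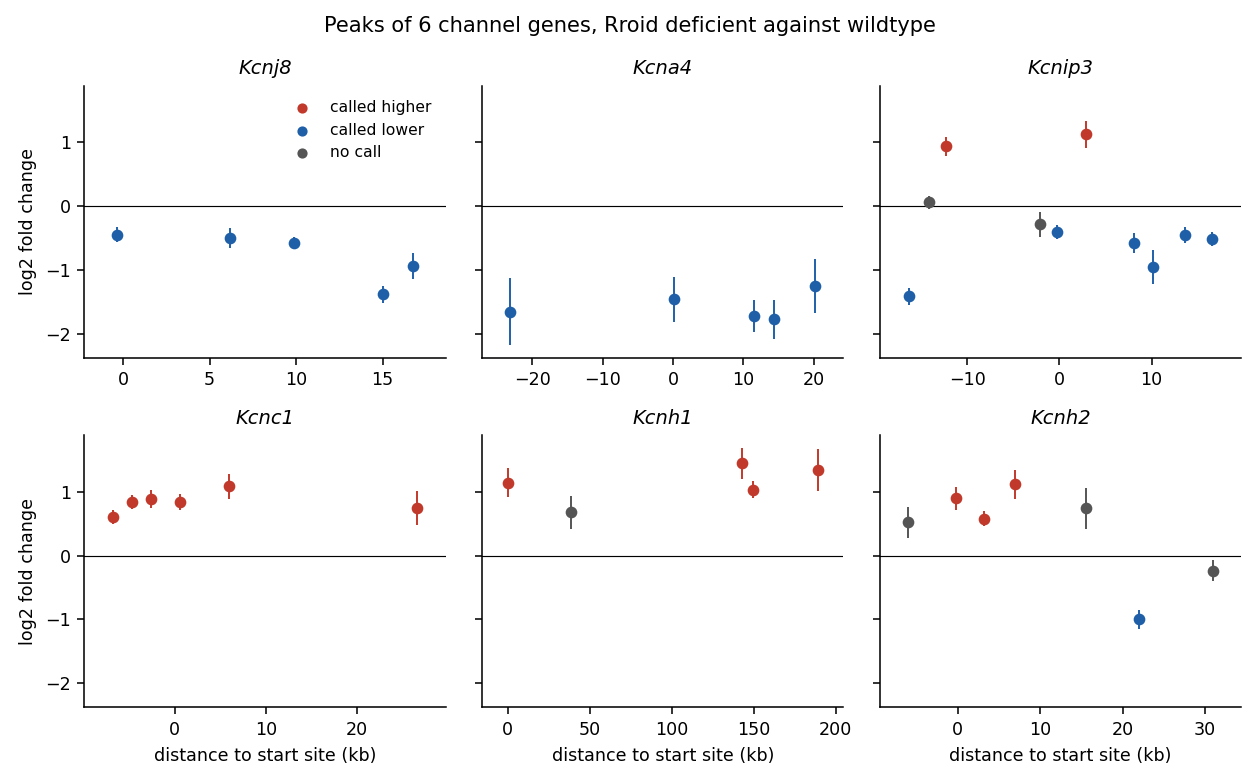
Log2 fold change (Rroid deficient against wildtype) with its SE at every peak of 6 genes, plotted by distance from the nearest annotated start site in kb and coloured by call. All peaks of Kcnj8 and Kcna4 fell, all of Kcnc1 rose, 4 of 5 at Kcnh1 rose, and Kcnip3 and Kcnh2 have both directions.

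The peaks of Kcnip1 and Kcnmb1 stood in 1 neighbourhood, since all 6 assigned to Kcnmb1, a beta subunit of the BK channel, lay inside a transcript of Kcnip1. The strong peak 16503 bp upstream of Kcnip1 had 997, 1017 and 784 in wildtype against 1695, 2039 and 1816 in Rroid-deficient cells and rose (log2 fold change 0.99, SE 0.11, adjusted p = 6.76e-06). Of the 6 peaks assigned to Kcnmb1, 2 rose, from 325 ± 31.6 to 529 ± 67.7 and from 179.7 ± 42.00 to 347 ± 67.6, and the 2 tallest, at 2778 ± 312 against 3178 ± 402 and at 1902 ± 207 against 1931 ± 177, were not called. Kcnmb4 rose at its promoter from 157 ± 39.96 to 272 ± 13.2. Kcnab2 fell at an intron peak with 721, 789 and 846 in wildtype against 469, 466 and 406 in Rroid-deficient cells (log2 fold change -0.81, SE 0.12, adjusted p = 7.44e-05), while its other tall peak, at 3000.0 ± 28.7 against 3129.7 ± 93.2, was not called. A lower intron peak of Kcnab2 fell and lost its call without wildtype library 2 or 3 or Rroid-deficient library 4, 5 or 6 (adjusted p 0.0553 to 0.204).

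Calcium channel pores had 25 peaks at 8 genes, of which 6 rose (24%) and 4 fell (16%), beside 13.8% and 12.1% of all peaks. The rises numbered 3 when either wildtype library 2 or Rroid-deficient library 6 was dropped. Cacna1d, encoding the L-type pore Cav1.3, had the deepest fall of any channel peak. Its intron peak (chromosome 14, 31130621 to 31131563) had 475, 245 and 205 normalized reads in wildtype libraries 1 to 3 against 78.2, 71.4 and 77.4 in Rroid-deficient libraries 4 to 6 (log2 fold change -1.92, SE 0.25, adjusted p = 2.2e-05), with no overlap. A second intron peak fell from 109 ± 20.04 to 54.7 ± 10.1 (adjusted p = 0.00652, log2 fold change -0.98), and the peak at its start, at 121 ± 39.8 against 124 ± 39.05, was not called. Cacna1c, encoding Cav1.2, had its tallest peak over an exon of the neighbouring Dcp1b, an mRNA decapping factor, with 1482, 1504 and 1439 in wildtype against 713, 792 and 812 in Rroid-deficient cells (log2 fold change -0.93, SE 0.10, adjusted p = 2.83e-06). A second peak inside Dcp1b fell from 398 ± 61.6 to 204 ± 33.6, while the promoter peak of Cacna1c, at 153 ± 33.98 against 215 ± 40.96, was not called. The Cacna2d4 peaks at the other end of Dcp1b fell as well, from 201 ± 17.6 to 123 ± 11.8 and from 255 ± 37.4 to 170.1 ± 3.77, the latter losing its call without wildtype library 2 (adjusted p = 0.105). These 4 falls thus shared a host gene that is no channel. Cacna1b, the N-type pore of nerve endings, rose at 3 of 4 weak peaks, at its start with 127, 121 and 80.1 in wildtype against 257, 263 and 245 in Rroid-deficient cells (log2 fold change 1.24, SE 0.19, adjusted p = 0.000135), with every Rroid-deficient library above every wildtype one. Cacna1e rose at 2 peaks and Cacna1i at 1, and these calls were lost for Cacna1e without wildtype library 2 or 3 or Rroid-deficient library 4 or 6 (adjusted p 0.0592 to 0.132) and without wildtype library 1 or 2 or Rroid-deficient library 4 or 6 (adjusted p 0.0751 to 0.112), and for Cacna1i without wildtype library 2 or 3 or Rroid-deficient library 5 or 6 (adjusted p 0.0534 to 0.109). Cacna1f, encoding the Cav1.4 pore described in T cells, had a highest peak of 451 ± 19.4 against 475 ± 15.1 and was not called (adjusted p = 0.686, log2 fold change 0.07).

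Calcium accessory subunits had 31 peaks at 11 genes, of which 3 rose (9.68%) and 7 fell (22.6%), beside 13.8% and 12.1% of all peaks. The falls numbered 3 without wildtype library 2. Cacnb4, encoding the beta-4 subunit, fell at 4 of 7 peaks. The tallest of the falling peaks had 528, 510.0 and 623 in wildtype against 402, 344 and 376 in Rroid-deficient cells (log2 fold change -0.56, SE 0.13, adjusted p = 0.0036) and the next 423, 525 and 567 in wildtype against 337, 365 and 332 in Rroid-deficient cells (log2 fold change -0.54, SE 0.14, adjusted p = 0.00718), with Rroid-deficient libraries below wildtype ones. The others lost their calls without wildtype library 1 or 2 or Rroid-deficient library 4 or 6 (adjusted p 0.0618 to 0.134) and without wildtype library 1 or 2 or Rroid-deficient library 5 (adjusted p 0.0539 to 0.146). Its tallest peak, among the 12 highest of all channels, was not called. Cacnb3, encoding beta-3, rose at both of its weak promoter peaks, from 73.1 ± 15.5 to 148 ± 13.8 and from 87.8 ± 23.96 to 166 ± 31.5. Of the gamma subunits, a Cacng6 peak rose from 340.5 ± 37.7 to 496 ± 59.3 and lost its call without Rroid-deficient library 6 (adjusted p = 0.0617).

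Sodium channels had 30 peaks at 11 genes, of which 8 rose (26.7%) and 2 fell (6.67%), beside 13.8% and 12.1% of all peaks. The falls numbered 1 when any library but Rroid-deficient library 5 was dropped. Their median log2 fold change over all 30 peaks, 0.37, was the highest of the families with more than 5 peaks. Weak peaks made up 66.7% of them, and the median over all weak peaks of the table was 0.14. The part of peak height in this rank was not tested. Scn2b and Scn4b, which encode beta subunits, are neighbours. Scn2b rose from 62.4 ± 28.5 to 123 ± 17.7, a call lost without wildtype library 3 or Rroid-deficient library 6 (adjusted p 0.061 to 0.0698), and from 99.9 ± 34.5 to 157 ± 30.3, a call lost without wildtype library 2 or 3 or Rroid-deficient library 4 or 5 (adjusted p 0.0604 to 0.236). Scn4b rose at its promoter from 62.5 ± 18.9 to 127 ± 17.8. The nearest called Scn2b peak lies 134 kb from the start-site peak of the T cell marker Cd3g, which rose too. Scn3a, encoding Nav1.3, fell at a strong intron peak with 703, 682 and 865 in wildtype against 446, 387 and 409.9 in Rroid-deficient cells (log2 fold change -0.85, SE 0.13, adjusted p = 8.55e-05).

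Of the TRP families, Trpm genes had 26 peaks at 8 genes, of which 4 rose (15.4%) and 2 fell (7.69%), beside 13.8% and 12.1% of all peaks. Without Rroid-deficient library 5, 8 rose. Trpm4, a monovalent cation channel opened by intracellular calcium, had the 2 kinds of result at neighbouring sites. Its intron peak 2354 bp after the start had 508, 484 and 362 in wildtype against 169.7, 156 and 157 in Rroid-deficient cells and fell (log2 fold change -1.47, SE 0.16, adjusted p = 3.31e-06), with no overlap, while the start-site peak had 854, 941 and 790.2 in wildtype against 719, 941 and 796 in Rroid-deficient cells and was not called (log2 fold change -0.08, SE 0.12, adjusted p = 0.664). Trpm1, best known from retinal bipolar cells, had 15 peaks, the most of any channel gene. The tallest, 104743 bp before the start, had 2129.9, 2305 and 2297 in wildtype against 1553, 1744 and 1791 in Rroid-deficient cells and fell (log2 fold change -0.41, SE 0.09, adjusted p = 0.00297). Weak peaks rose from 117 ± 7.53 to 274 ± 15.9, from 38.3 ± 17.3 to 89.97 ± 12.2 and from 39.6 ± 2.47 to 71.3 ± 4.38, the last losing its call without wildtype library 2 or 3 or Rroid-deficient library 5 or 6 (adjusted p 0.0519 to 0.0881). Trpm8, the cold and menthol receptor, rose at 1 peak from 88.6 ± 2.42 to 218 ± 101. Trpm7, a channel fused to a kinase, had 2317, 2298 and 2161 in wildtype against 2029, 2463 and 2160.5 in Rroid-deficient cells at its only peak (log2 fold change -0.03, SE 0.09, adjusted p = 0.841), and the groups overlapped. Trpm2, opened by ADP-ribose, had no called peak, the highest at 147 ± 25.1 against 111 ± 7.46.

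Of 5 Trpc peaks and 11 Trpv peaks, none was called by limma, edgeR or DESeq2, and 0 Trpc and 4 Trpv peaks had an unadjusted limma p under 0.05. The Trpc1 start-site peak had 1555, 1385 and 1393 in wildtype against 1293, 1389 and 1196 in Rroid-deficient cells (log2 fold change -0.16, SE 0.10, adjusted p = 0.245), and the Trpv2 peak near its start had 2290.2, 2356 and 2032 in wildtype against 1998, 2443 and 2067 in Rroid-deficient cells (log2 fold change -0.04, SE 0.10, adjusted p = 0.802). The groups overlapped at both. Without wildtype library 1, 2 Trpv6 peaks fell (adjusted p = 0.0242 and 0.0199), a weak Trpv2 peak rose (adjusted p = 0.0324) and a Trpc6 peak rose (adjusted p = 0.0361). The Trpc6 peak also rose without Rroid-deficient library 5 (adjusted p = 0.0463), and 1 Trpv peak fell without libraries 4 and 6. At Trpc4ap, an adaptor protein rather than a channel, 2 intron peaks rose, from 225 ± 14.99 to 423 ± 33.7 and from 29.8 ± 4.78 to 86.5 ± 22.1, while its start-site peak was not called.

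By gene, 35 channel genes had only rising calls, 17 only falling calls, 4 both (Kcnip3, Kcnh2, Kcng3 and Trpm1) and 60 none. Of the 32 genes with a strong peak, 9 had only rises and 12 only falls. Of the 53 genes whose highest peak was weak, 18 had only rises and 1, Kcna4, only falls. These patterns were not counted over all genes, so they cannot be read as particular to channel genes. To count each gene once, values were summed over its peaks and fitted over all 16527 nearest genes. Of the 116 channel genes, 23 rose and 14 fell, where 20.7% of all genes were called, 11.0% higher and 9.7% lower. Among genes with a strong peak, 4 of 32 rose and 10 fell, beside 5.33% and 13.1% of all such genes. Among genes whose highest peak was moderate, 7 of 31 rose and 3 fell, beside 16.5% and 8.99%. Among genes with weak peaks only, 12 of 53 rose and 1 fell, beside 20.0% and 1.75%. The counts depended on single libraries. Without wildtype library 3, as without Rroid-deficient library 6, 14 genes rose. The falls numbered 8 when wildtype library 2 was left out, 9 for Rroid-deficient library 4 and 7 for Rroid-deficient library 6.

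Summed values of Kcnc1 rose from 4007 ± 667 to 6774 ± 476 (log2 fold change 0.77, SE 0.11, adjusted p = 0.000185). Kcnj8 fell from 5260.3 ± 614 to 3381 ± 124 (log2 fold change -0.63, SE 0.09, adjusted p = 0.000169), Kcna4 from 505 ± 65.2 to 179 ± 87.1 (log2 fold change -1.60, SE 0.27, adjusted p = 0.000964) and Kcnn4 from 4316 ± 98.9 to 2899 ± 141 (log2 fold change -0.57, SE 0.07, adjusted p = 0.000106). Kcnip3 fell from 6418 ± 463 to 5293 ± 499 (log2 fold change -0.28, SE 0.08, adjusted p = 0.0298), and its call was lost without wildtype library 1 or 2 or Rroid-deficient library 4 or 6 (adjusted p 0.0797 to 0.116). Cacna1c fell from 2116 ± 126 to 1274 ± 86.4 (log2 fold change -0.73, SE 0.09, adjusted p = 8.91e-05). Kcna3, with a tall peak that was not called and 3 falling ones upstream, fell from 6664 ± 70.01 to 5703 ± 228 (log2 fold change -0.23, SE 0.07, adjusted p = 0.0296), a call lost without wildtype library 2 or 3 or Rroid-deficient library 4 or 6 (adjusted p 0.0616 to 0.123).

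**Figure D5:**
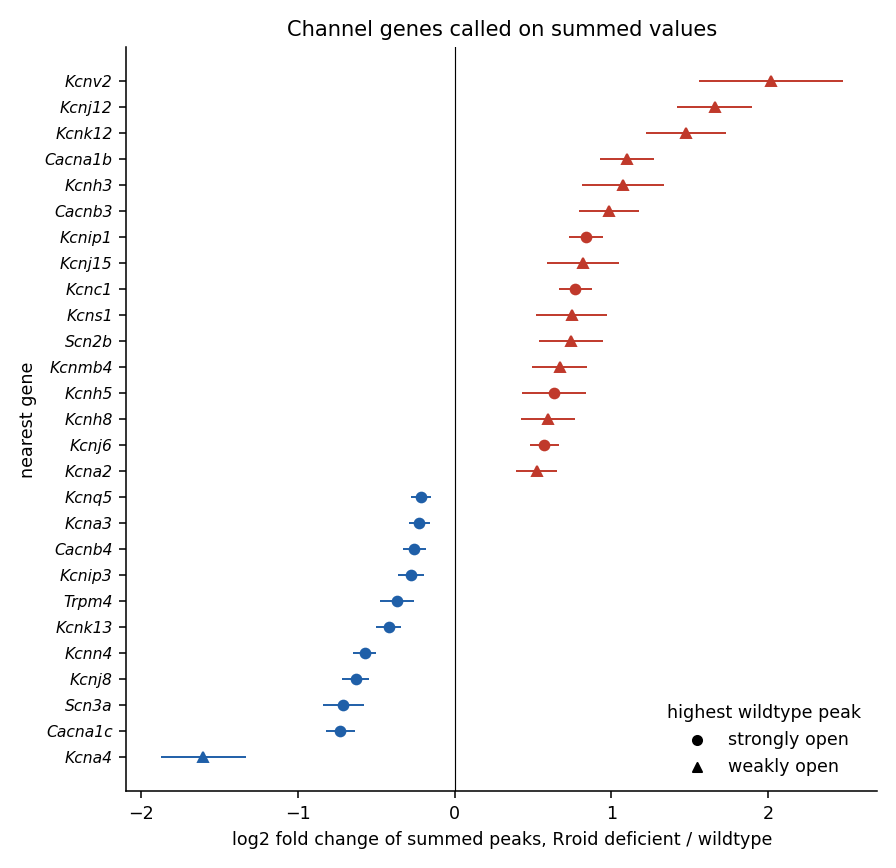
Log2 fold change with its SE for values summed over all peaks of a gene, for the called ion channel genes whose highest peak is strong (circles) or weak (triangles). Of 32 genes with a strong peak, 4 rose (12.5%) and 10 fell (31.2%), beside 5.33% and 13.1% of all such genes. Of 53 genes with weak peaks only, 12 rose (22.6%) and 1, Kcna4, fell (1.89%), close to the 20.0% and 1.75% of all such genes.

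Other genes of calcium handling and of lymphocyte ion transport were read from lists outside the symbol rule, beside 13.8% of all peaks that rose and 12.1% that fell. The store-operated entry genes, which supply most calcium entry of lymphocytes, had 25 peaks at 7 genes, of which 5 rose (3 when any of libraries 2, 4 or 6 was dropped) and 1 fell at a median log2 fold change of 0.09. The start-site peaks of Stim1, the calcium sensor of the endoplasmic reticulum, at 7177 ± 439 against 6774 ± 405, and of Orai1, the pore, at 3917 ± 457 against 3709 ± 536, were not called. The strong Tmem110 peak 350 bp after its start rose from 966 ± 29.4 to 1192 ± 48.3 (adjusted p = 0.0279, log2 fold change 0.30). This call was lost without wildtype library 2 or 3 or Rroid-deficient library 4, 5 or 6. Stim1 rose at 2 intron peaks, from 289 ± 10.2 to 487 ± 37.3 and from 584 ± 52.00 to 835 ± 89.4. Release channels, pumps and exchangers had 84 peaks at 15 genes, of which 4 rose and 17 fell at a median of -0.19. The falls numbered 13 when wildtype library 2 or Rroid-deficient library 4 or 6 was dropped. With all libraries they included 9 of 23 peaks of Atp2b1 and 4 of Atp2b4, both plasma membrane calcium pumps. Atp2b1 had 6 falls without wildtype library 2 or 3 or Rroid-deficient library 6, and Atp2b4 had 3 without Rroid-deficient library 4. The deepest fall, at Atp2b4, had 1094, 528 and 917 in wildtype against 67.6, 34.3 and 60.5 in Rroid-deficient cells (log2 fold change -3.93, SE 0.26, adjusted p = 1.91e-08). Other channels of lymphocytes had 111 peaks at 22 genes, of which 22 rose and 10 fell at a median of 0.06, and the falls numbered 3 without wildtype library 2, 4 without wildtype library 3, 5 without Rroid-deficient library 4 and 6 without Rroid-deficient library 6. Hvcn1, the voltage-gated proton channel, rose at all 7 of its peaks, the tallest having 2551, 2635 and 2059 in wildtype against 2903, 3615 and 3096 in Rroid-deficient cells (log2 fold change 0.41, SE 0.10, adjusted p = 0.00796) and the promoter peak 160.3, 152 and 89.9 in wildtype against 361, 525 and 377 in Rroid-deficient cells (log2 fold change 1.67, SE 0.21, adjusted p = 1.73e-05). The ATP-gated P2rx7 rose at all 3 peaks and P2rx4 at 3 of 4, and P2rx7 had 2 calls without wildtype library 3, and P2rx4 had 2 without wildtype library 3 or Rroid-deficient library 5 or 6.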

How the data were processed

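The genome build was mm9, and HOMER, DiffBind, MACS2 2.1.0, BWA, Trimmomatic 0.32, R 3.1.1 and bcl2fastq 2.16.0 were named, per the submitters' processing notes. Duplicate removal, the shift of reads to the cut site and the tools' roles are not given in the sources used here. Each deposited signal value was a whole number of reads over a factor fixed for its library: within 0.01, 100% of the values in each of the 6 columns came out whole. They are called normalized reads here. The median peak held 151 to 224 reads, a counting error of 6.68% to 8.14%. HOMER's annotation, per the file headers, gave the nearest gene and the distance to a start site.

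The column names showed the genotype but not the sample for Rroid-deficient libraries, whose columns end in 4, 5 and 6, so libraries are replicates of a group without pairing. Since the deposited unit was a signal, the test was limma 3.58.1 (R 4.3.3) fitted with a trend to log2(value + 1), a scale that understates changes where values are low. P-values were adjusted over all 51775 peaks by Benjamini-Hochberg, with a call at an adjusted p under 0.05. A filter for values of at least 10 in 3 libraries took out 0 peaks. edgeR 4.0.16 quasi-likelihood on the recovered reads, which called 7080 of all peaks higher and 6246 lower, and DESeq2 1.42.0 were alternatives, as were other scalings, pseudocounts of 0.5 and 5, a mean of at least 50, a distance limit of 100 kb and each library left out. The scripts were tested on simulated data. Host genes of transcripts came from RefSeq names, and 90 of 116 symbols matched a promoter in the RefSeq table.

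Named peaks were the highest of the 12 genes with the tallest wildtype peak, the 12 largest rises and 12 deepest falls with no overlap (1 per gene), genes with 3 or more peaks called in 1 direction, channels known in lymphocytes, and the members beside each height limit. Further peaks of these genes and a few other called genes were added after their values were seen. The members, lists and rule were chosen with earlier results of these data known. Results of a few of the named genes are not reported here, though all members count in every total.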

Additional observations from a re-analysis of the deposited data

How the results depend on the processing

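Of 43 peaks named by rule, 28 kept their direction and their side of the threshold under every alternative run, and over all their alternatives 675 of 729 values did so, 30 lost a call, 2 gained one and 22 changed sign. The sign changes were all at 6 uncalled peaks, from a log2 fold change just below 0 to one above it, and none of these values was called. Scaling by total reads in peaks gave 0.0267 at Kcnn1, 0.0376 at Kcna3, 0.0288 at Trpm7 and 0.0196 at Trpv2. Loess scaling gave 0.0596 at Kcnn1, 0.0298 at Kcnab2, 0.0675 at Kcna3, 0.0403 at Trpm7 and 0.0304 at Trpv2. Without libraries 4 and 6 the values were 0.0945 at Kcnn1, 0.0163 at Kcnab2, 0.0144 at Kcna3, 0.126 at Trpm7, 0.137 at Trpv2 and 0.130 at Trpm4. With 1 library left out in turn they ranged from -0.0961 to 0.0583 at Kcnn1, -0.0397 to 0.0040 at Kcna3, -0.1085 to 0.0312 at Trpm7, -0.128 to 0.0167 at Trpv2 and -0.1845 to 0.0092 at Trpm4. Of 118 called channel peaks, 79 kept their call in all 13 alternatives to which calls were compared, 52 higher and 27 lower. With Rroid-deficient libraries 4 and 6 left out, which leaves that group 1 library whose spread is assumed to be like the wildtype one, 40 channel peaks rose and 31 fell, 25 weak peaks rose, 7 strong and 13 moderate peaks fell, and 13 genes rose and 8 fell, while 7.2% of all peaks rose and 7.06% fell. At an adjusted p limit of 0.01, 28 channel peaks fell, 12 of them moderate and 4 weak, and by gene 11 rose and 7 fell. Scaling by total reads in peaks gave 6 weak falls in place of 12. With 1 library left out in turn, the channel peaks that rose ranged from 55 to 80 (strong 5 to 7, moderate 10 to 18, weak 39 to 58) and those that fell from 31 to 43 (strong 12 to 18, moderate 13 to 21, weak 5 to 12). By gene, rises ranged from 14 to 28 and falls from 7 to 14. The cause of these shifts was not tested. No paired analysis was possible because the Rroid-deficient columns share no replicate number with the wildtype ones. Counting error was 6.68% to 8.14% at the median peak of a library and is larger at lower peaks.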
